A study of Mus musculus with 6 samples.

Results

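Oxidative phosphorylation is carried out by 5 protein complexes of the inner mitochondrial membrane, and its genes lie in both the nuclear and the mitochondrial genome. The members described here are the protein-coding genes of the count table whose names start with Nduf, Uqcr, Cox4 to Cox8, Atp5 or mt-, together with Sdha, Sdhb, Sdhc and Sdhd. The rule took 99 of the 25904 genes of the table. Of these, 79 are nuclear genes for subunits (36 of complex I, 4 of complex II, 8 of complex III, 16 of complex IV and 15 of complex V), 8 are complex I assembly factors named Ndufaf, and 9 are mitochondrially encoded subunits. The last 3 (Ndufa4l2, Cox7a2l and Atp5s) carry such names but were not counted as subunits. A further 22 rows that match by name have another biotype and were left out. The genes mt-Co3, mt-Nd3, mt-Nd4l and mt-Atp8 are not among the members, although the rule takes every protein-coding row whose name starts with mt-.

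Polyadenylated RNA was sequenced from livers of C57BL/6J mice, in 3 libraries heterozygous for Ptprd (Ptprd+/-) and 3 wild type (Ptprd+/+). Ptprd encodes a receptor-type tyrosine phosphatase. Which Ptprd allele was altered, and how, is not given, nor are sex, age and diet, and the labels name no other difference between the genotypes. Each library is called a liver below, but the labels do not say whether the 3 libraries of a genotype came from 3 mice. If libraries of a genotype shared a mouse, the p-values below would measure technical spread. The libraries held 37924266 to 72954187 counts. Ptprd itself had 54.1, 78.1 and 63.4 CPM (read counts scaled to the size of each library) in the 3 Ptprd+/- livers, against 128.3, 127.2 and 131.9 CPM in the 3 Ptprd+/+ livers. All Ptprd+/- values were below all Ptprd+/+ values, with a log2 fold change of -0.99 ± 0.14 (SE). The adjusted p was 0.298 in edgeR's quasi-likelihood test and 2.23e-06 in DESeq2.

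Complex I (NADH dehydrogenase) and complex II (succinate dehydrogenase) pass electrons through coenzyme Q to complex III and on through cytochrome c to complex IV (cytochrome c oxidase), which reduces oxygen. Complexes I, III and IV pump protons, and complex V (ATP synthase) uses the returning protons to make ATP. Mitochondrial DNA encodes core subunits of complexes I, III, IV and V, and all subunits of complex II are nuclear, so 4 of the complexes need both genomes. Liver cells use this system for gluconeogenesis, urea synthesis and fatty acid oxidation.

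The nuclear subunits and the mitochondrial subunits lay on opposite sides of no change in the Ptprd+/- livers, by amounts that no single gene's test called. The fitted log2 fold change, Ptprd+/- over Ptprd+/+, was positive for 65 of the 76 nuclear subunits that passed the filter on low counts, with a median of 0.11 and a range of -0.10 to 0.90. It was negative for all 7 mitochondrial subunits that passed, with a median of -0.18 and a range of -0.34 to -0.04. That median is the value of mt-Nd6, by far the least abundant of the 7. Over all 14606 tested genes 49.2% were positive and the median was -0.0039. In all, 94 members were tested, and the remaining 5 (mt-Co2, mt-Atp6, Cox4i2, Cox6a2 and Cox8b) had too few counts.

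No member reached an adjusted p of 0.05 in edgeR, in DESeq2 or in limma-voom. Over all tested genes these tools called 0.0%, 0.438% and 0.0%. The smallest adjusted p among the members was 0.677 in edgeR. At an unadjusted p under 0.05, 6 of the 94 members were higher and 0 lower in Ptprd+/- livers, against 3.39% higher and 3.77% lower over all tested genes. All Ptprd+/- libraries lay above all Ptprd+/+ libraries for 7 of the 94 members, and below them for 1. The same was seen for 7.15% and 6.72% of all tested genes, so the members' count above was near the background and the count below was under it. In bulk liver RNA, fewer cells of a type and less RNA per cell cannot be told apart.

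The difference of the nuclear subunits rested largely on Ptprd+/- liver 1, and to a lesser degree on Ptprd+/+ liver 2. Each subunit's log2(CPM + 0.5) was set against its own mean over the 6 libraries, and the median over the 76 nuclear subunits was taken in each library. This level was 0.22, 0.04 and -0.08 in Ptprd+/- livers 1, 2 and 3, against -0.02, -0.13 and -0.0030 in Ptprd+/+ livers 1, 2 and 3. The genotypes overlapped, since Ptprd+/- liver 3 lay below 2 of the Ptprd+/+ livers. Ptprd+/- liver 1 was the highest library for 63 of the 76 subunits, and Ptprd+/+ liver 2 was the lowest for 46. Without Ptprd+/- liver 1, 44 of the 76 were positive. The median log2 fold change of the nuclear subunits was then 0.02, without Ptprd+/+ liver 2 it was 0.08, and without Ptprd+/- liver 3 it was 0.18.

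The mitochondrial subunits had another order of libraries. Their level was -0.21, -0.27 and 0.13 in the Ptprd+/- livers, against 0.23, 0.08 and -0.02 in the Ptprd+/+ livers. Ptprd+/- livers 1 and 2 were the lowest libraries for 3 and 4 of the 7 genes, while Ptprd+/- liver 3 was the highest for 4 and Ptprd+/+ liver 1 for 3. The mitochondrial subunits took 3.16%, 3.35% and 4.28% of the counts in Ptprd+/- livers, against 4.49%, 4.26% and 3.76% in Ptprd+/+ livers. Their median log2 fold change was -0.40 without Ptprd+/- liver 3 and 0.02 without Ptprd+/- liver 2. It stayed at -0.18 when the libraries were scaled on nuclear genes alone.

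**Figure D1:**
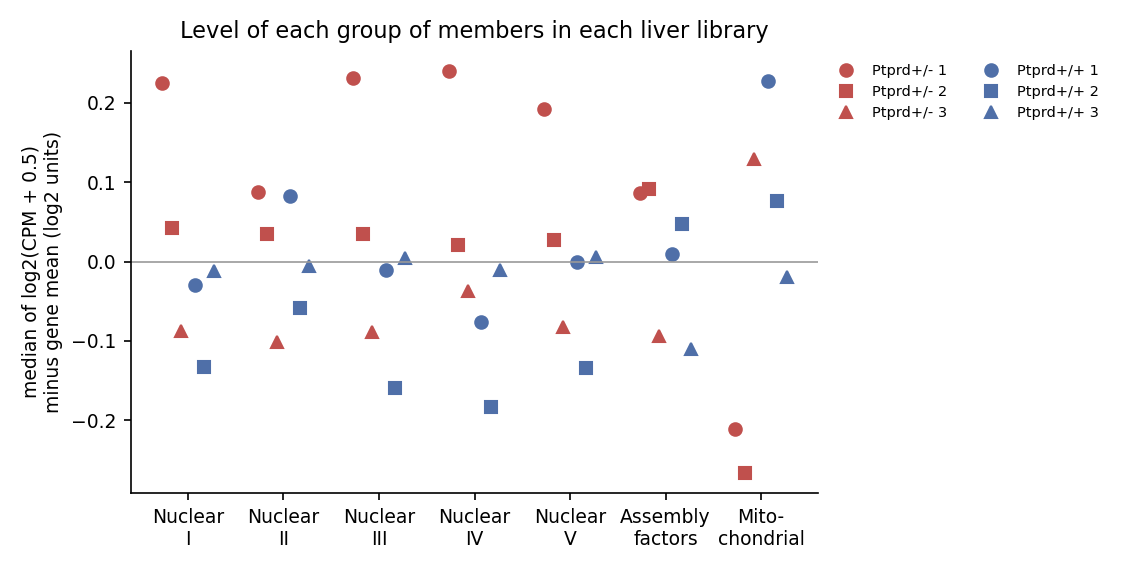
Median level in each library of the nuclear subunits by complex, the complex I assembly factors and the mitochondrial subunits, as log2(CPM + 0.5) minus each gene's mean over the 6 libraries; each point is 1 library, with Ptprd+/- left of Ptprd+/+. Ptprd+/- liver 1 is the highest library for the nuclear subunits of each complex, and Ptprd+/- livers 1 and 2 are lowest for the mitochondrial subunits (-0.21 and -0.27).

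Among the mitochondrial subunits, those of complex I form its membrane arm. mt-Nd5 had 2874, 3702 and 4015 CPM in Ptprd+/- livers, against 5237, 4080 and 4072 CPM in Ptprd+/+ livers, a log2 fold change of -0.34 ± 0.18 (SE). mt-Nd1 had 4156, 4186 and 5636 CPM in Ptprd+/- livers, against 6291, 5958 and 5081 CPM in Ptprd+/+ livers, a log2 fold change of -0.31 ± 0.17. mt-Nd5 was the only one of the tested mitochondrial subunits whose genotypes did not overlap, and the gap between Ptprd+/- liver 3 and the nearest Ptprd+/+ liver was small. mt-Nd2 had 4807, 4627 and 6913 CPM in Ptprd+/- livers, against 5709, 5892 and 5751 CPM in Ptprd+/+ livers (log2 fold change -0.09 ± 0.18). mt-Nd4 had 3730, 2994 and 4090 CPM in Ptprd+/- livers, against 3925, 3745 and 3486 CPM in Ptprd+/+ livers (log2 fold change -0.04 ± 0.15). For both of these genes Ptprd+/- liver 3 was the highest and Ptprd+/- liver 2 the lowest of the 6 libraries. mt-Nd6, the subunit gene on the light strand, was by far the lowest of the tested mitochondrial genes, with 21.3, 15.6 and 31.6 CPM in Ptprd+/- livers against 27.9, 28.0 and 21.8 CPM in Ptprd+/+ livers (log2 fold change -0.18 ± 0.24).

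mt-Co1, the catalytic core of cytochrome c oxidase, had 7101, 7640 and 8898 CPM in Ptprd+/- livers, against 11330, 9190 and 8722 CPM in Ptprd+/+ livers. Its log2 fold change was -0.31 ± 0.17 (SE), and Ptprd+/- liver 3 lay above 1 Ptprd+/+ liver. mt-Cytb, the cytochrome b of complex III, had 11082, 10388 and 12342 CPM in Ptprd+/- livers, against 12166, 11463 and 11066 CPM in Ptprd+/+ livers. The log2 fold change of mt-Cytb was -0.04 ± 0.14, with Ptprd+/- liver 3 the highest library and Ptprd+/- liver 2 the lowest. The unadjusted p of these 7 genes was 0.0891 or more in edgeR, while DESeq2 gave 0.0461 for mt-Co1 and 0.0497 for mt-Nd5.

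mt-Co2, the copper-binding subunit of cytochrome c oxidase, and mt-Atp6, the proton channel subunit of ATP synthase, were nearly absent from the table. mt-Co2 had 0 reads in every Ptprd+/- library and 1 read in the Ptprd+/+ libraries. mt-Atp6 likewise had 0 reads in every Ptprd+/- library and 1 read in the Ptprd+/+ libraries. Their neighbours on the same strand of mitochondrial DNA were among the most abundant genes, with 2599106 reads for mt-Co1 and 1084150 for mt-Nd4 over the 6 libraries. Mitochondrial DNA has copies in the nuclear genome, and both genes lie in a stretch with such a copy on chromosome 1. The first 60 coding bases of each gene are shown beside those of the copy, because the identity bears on which gene a read can be assigned to (GENCODE M21 transcripts, GRCm38; mt-Co2 chrM:7013-7072 and mt-Atp6 chrM:7927-7986, plus strand; Gm28661 chr1:24615506-24615565 and Gm10925 chr1:24614592-24614651, minus strand).
mt-Co2: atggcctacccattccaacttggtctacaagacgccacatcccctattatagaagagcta
Gm28661: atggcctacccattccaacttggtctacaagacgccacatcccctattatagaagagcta
mt-Atp6: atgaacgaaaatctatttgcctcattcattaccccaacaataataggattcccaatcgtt
Gm10925: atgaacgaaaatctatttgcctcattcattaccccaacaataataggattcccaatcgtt
No base differs in these pairs, so none is in capitals. Over the whole coding sequence, 681 of 681 bases of mt-Co2 matched Gm28661 and 678 of 678 bases of mt-Atp6 matched Gm10925.

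The share of a gene's 50-base stretches that also occur in another annotated gene differed along the mitochondrial DNA. In genome order it was 0% for mt-Nd1, 8.19% for mt-Nd2, 51.1% for mt-Co1, 100% for mt-Co2, 99.5% for mt-Atp6, 62.2% for mt-Nd4, 7.61% for mt-Nd5 and 0% for mt-Nd6 and mt-Cytb. The genes with 1 read in all were the ones with almost no stretch of their own. The nuclear copies did not hold these reads either, with 32 reads for Gm28661 and 23 for Gm10925 over the 6 libraries. The sources used here do not give how multiply mapping reads were counted, and its part in these counts was not tested. The levels of mt-Co1 and mt-Nd4 share the same limit. The 5 mitochondrial genes with under 10% shared sequence had the same median log2 fold change of -0.18. In both sets this is the value of mt-Nd6. The genes left out, mt-Co1 (-0.31) and mt-Nd4 (-0.04), lie on either side of it, so the median could not move.

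**Figure D2:**
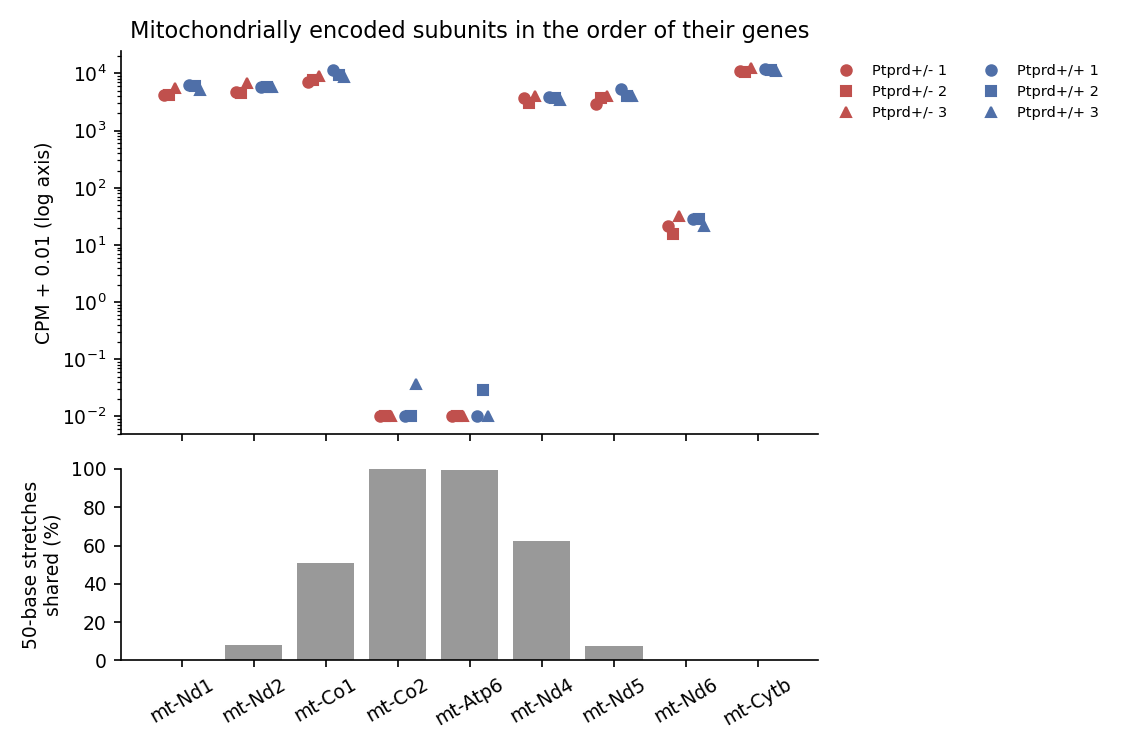
CPM of the 9 mitochondrial subunits in each library, on a log axis after adding 0.01 CPM, with Ptprd+/- left of Ptprd+/+ and 1 point per library; bars below give the percent of 50-base stretches shared with another gene. The values of mt-Co2 and mt-Atp6 sit at the floor with 1 read each in all, and mt-Nd6 lies far below the other 6 genes.

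Complex I had the largest number of nuclear subunits and held all 6 whose genotypes did not overlap. Among all 76 tested nuclear subunits, these 6 were near the 7.15% of all tested genes with every Ptprd+/- library above. Of its 36 tested nuclear subunits 32 had a positive log2 fold change (median 0.13), and 4 were higher at an unadjusted p under 0.05, against 3.39% of all tested genes. All 4 are accessory subunits, outside the catalytic core. Ndufs5 had 9.60, 9.22 and 7.64 CPM in Ptprd+/- livers, against 5.86, 5.43 and 7.20 CPM in Ptprd+/+ livers. Its log2 fold change was 0.52 ± 0.16 (SE) with an unadjusted p of 0.0121 and an adjusted p of 0.677 in edgeR. This gene had 2169 reads in all, and 31.1% of its stretches are shared with BC002163. Ndufa3 had 110.5, 93.4 and 82.5 CPM in Ptprd+/- livers, against 76.0, 67.3 and 79.9 CPM in Ptprd+/+ livers (log2 fold change 0.36 ± 0.13).

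For both of these genes every Ptprd+/- library was above every Ptprd+/+ library, with Ptprd+/- liver 3 only just above Ptprd+/+ liver 3. Ndufb3 had 39.1, 36.4 and 33.5 CPM in Ptprd+/- livers, against 30.6, 29.7 and 31.8 CPM in Ptprd+/+ livers (log2 fold change 0.24 ± 0.10 SE), again without overlap. Ndufa1, an X-linked subunit of the membrane arm, had 67.3, 61.0 and 64.4 CPM in Ptprd+/- livers, against 50.5, 49.8 and 61.1 CPM in Ptprd+/+ livers (log2 fold change 0.26 ± 0.11). Here Ptprd+/+ liver 3 lay just above the lowest Ptprd+/- library. The other 3 subunits without overlap were Ndufs6, Ndufa2 and Ndufb11, named after their values were seen, with log2 fold changes of 0.26, 0.27 and 0.19. The lowest value among the nuclear complex I subunits was that of Ndufb4, -0.10 ± 0.13, with 6.17, 5.32 and 5.50 CPM in Ptprd+/- livers against 6.03, 6.29 and 5.86 CPM in Ptprd+/+ livers and 37.0% of its sequence shared.

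Complex II, which is wholly nuclear and also works in the citric acid cycle, had 1 of 4 subunits positive and a median of -0.02. Without Ptprd+/- liver 1 the median was -0.06, against 0.03 for complex I, -0.01 for complex III, 0.06 for complex IV and 0.02 for complex V. Sdha, the flavoprotein that oxidises succinate, had 543, 569 and 532 CPM in Ptprd+/- livers, against 589, 546 and 546 CPM in Ptprd+/+ livers (log2 fold change -0.03 ± 0.10 SE). Sdhb, the iron-sulfur subunit, had 220, 199.9 and 167 CPM in Ptprd+/- livers, against 206, 184 and 201 CPM in Ptprd+/+ livers (log2 fold change -0.01 ± 0.12). The genotypes overlapped for both. Sdhc and Sdhd anchor the enzyme in the membrane. Sdhc had 179, 164 and 146 CPM in Ptprd+/- livers, against 161, 142 and 154 CPM in Ptprd+/+ livers (log2 fold change 0.10 ± 0.11). Sdhd had 234, 235 and 217 CPM in Ptprd+/- livers, against 251, 229 and 234 CPM in Ptprd+/+ livers (log2 fold change -0.06 ± 0.10).

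For complex III, 6 of 8 nuclear subunits were positive, with a median of 0.08. None was at an unadjusted p under 0.05, against 3.39% higher and 3.77% lower over all tested genes. Uqcrq, a small subunit of the complex, had 316, 267 and 237 CPM in Ptprd+/- livers, against 244, 210 and 250 CPM in Ptprd+/+ livers (log2 fold change 0.22 ± 0.13 SE). Uqcrh, the hinge protein that helps cytochrome c bind, had 178, 155 and 146 CPM in Ptprd+/- livers, against 138, 129.8 and 157 CPM in Ptprd+/+ livers (log2 fold change 0.17 ± 0.12). In both, Ptprd+/- liver 1 was the highest library and Ptprd+/- liver 3 lay within the Ptprd+/+ values. Uqcr10 had a log2 fold change of 0.14 ± 0.12, and Uqcrc1, the large core protein, one of 0.08 ± 0.11.

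All 13 tested nuclear subunits of complex IV had a positive log2 fold change, with a median of 0.15, a range of 0.06 to 0.90 and no subunit without overlap between genotypes. This direction depended on single libraries: without Ptprd+/- liver 1, 9 of the 13 were positive, and Cox4i1, Cox6a1, Cox7b and Cox8a had log2 fold changes of -0.01, -0.06, -0.04 and -0.04. Without Ptprd+/- liver 3, Cox7a1 was at -0.01. Cox5b, which lies on the matrix side of the enzyme, had 74.2, 66.3 and 51.1 CPM in Ptprd+/- livers, against 53.3, 46.7 and 56.6 CPM in Ptprd+/+ livers (log2 fold change 0.29 ± 0.15 SE). Cox6c had 119, 107 and 96.7 CPM in Ptprd+/- livers, against 91.5, 87.3 and 97.0 CPM in Ptprd+/+ livers (log2 fold change 0.23 ± 0.11). Cox7a2, the isoform of subunit VIIa used in liver, had 159, 144 and 133 CPM in Ptprd+/- livers, against 124, 113 and 138 CPM in Ptprd+/+ livers (log2 fold change 0.22 ± 0.11). In all 3 genes Ptprd+/- livers 1 and 2 were above every Ptprd+/+ liver and Ptprd+/- liver 3 was not. Cox5b and Cox6c share 25.9% and 13.9% of their stretches with other genes.

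ATP synthase had 13 of 15 nuclear subunits positive, with a median of 0.13, against 49.2% positive over all tested genes. Of the 15, 1 was higher at an unadjusted p under 0.05, against 3.39% of all tested genes. That one was Atp5k, subunit e of the membrane part, which takes part in pairing the enzyme into dimers. It had 119, 110.2 and 91.6 CPM in Ptprd+/- livers, against 82.0, 71.7 and 92.2 CPM in Ptprd+/+ livers. The log2 fold change was 0.38 ± 0.14 (SE) with an unadjusted p of 0.0218 and an adjusted p of 0.685 in edgeR, and Ptprd+/- liver 3 was just below the highest Ptprd+/+ liver. Atp5j2 (subunit f) and Atp5d (the delta subunit of the rotor) had log2 fold changes of 0.16 ± 0.13 for each. Atp5b, the catalytic beta subunit and the most abundant nuclear subunit in CPM, had 1601, 1472 and 1361 CPM in Ptprd+/- livers, against 1519, 1382 and 1525 CPM in Ptprd+/+ livers (log2 fold change 0.0021 ± 0.12). Atp5g2, a gene for the c ring, had 140 reads in all and 87.4% shared sequence, with a log2 fold change of 0.46 ± 0.33.

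**Figure D3:**
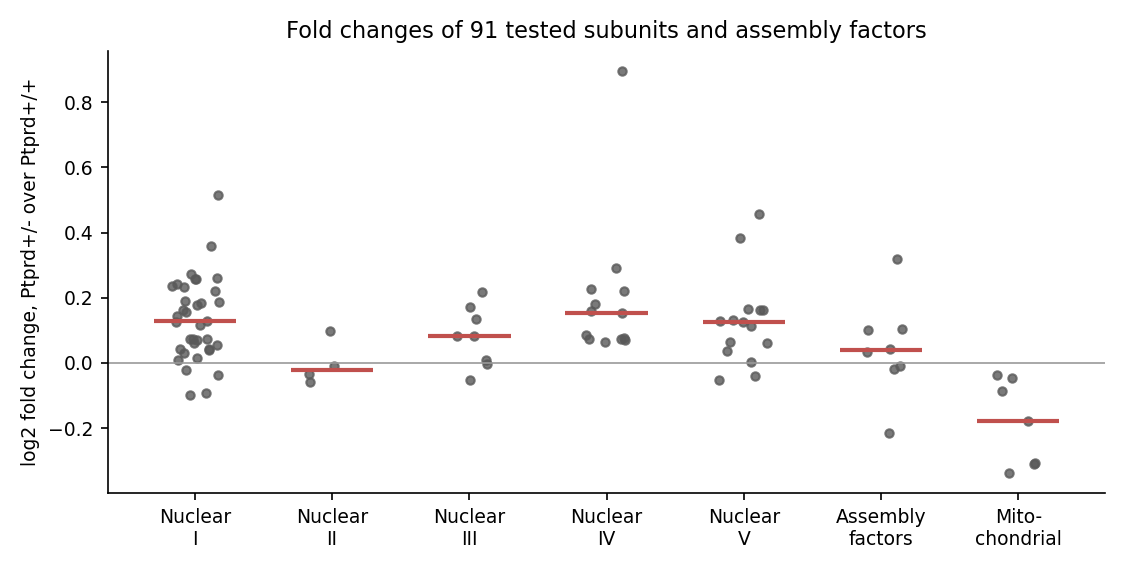
Fitted log2 fold change (Ptprd+/- over Ptprd+/+) of the 91 tested subunits and assembly factors, 1 point per gene, in columns by complex and genome; red lines are medians and the grey line marks no change. The nuclear subunits of complexes I, III, IV and V lie mostly above 0 (medians 0.13, 0.08, 0.15 and 0.13), those of complex II around it (-0.02), and all mitochondrial subunits below it.

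Several subunits have paralogs that are used in heart, skeletal muscle, testis or lung. Cox6b2, the testis form, had 86 reads in all, with 0.494, 0.234 and 0.403 CPM in Ptprd+/- livers against 0.065, 0.293 and 0.241 CPM in Ptprd+/+ livers. Its log2 fold change of 0.90 ± 0.53 (SE) was the highest of any nuclear subunit, and the genotypes overlapped. Cox7a1, the heart and muscle form, had 308 reads in all and a log2 fold change of 0.09 ± 0.23. Cox6a2 and Cox8b, also heart and muscle forms, had 9 and 5 reads in all, and Cox4i2, a lung form, had 27. Their liver counterparts are far more abundant, with Cox7a2 at 113 CPM or more in every library. Cox7b2 and Cox8c are not among the members, although the rule takes every protein-coding row whose name starts with Cox4 to Cox8. Ndufa4l2, a hypoxia-responsive relative of the complex IV subunit Ndufa4, had a log2 fold change of 0.03 ± 0.24 on 516 reads.

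Assembly factors help build complex I but are absent from the finished enzyme. Of the 8 named Ndufaf, 5 had a positive log2 fold change and the median was 0.04. Ndufaf3 had 13.1, 13.7 and 10.6 CPM in Ptprd+/- livers, against 10.57, 9.77 and 9.58 CPM in Ptprd+/+ livers (log2 fold change 0.32 ± 0.13 SE). Its unadjusted p was 0.042 and its adjusted p 0.694 in edgeR, and no Ptprd+/- library lay below a Ptprd+/+ library. Ndufaf5, known in human cells to modify the core subunit NDUFS7, had 5.18, 4.45 and 3.76 CPM in Ptprd+/- livers, against 5.12, 5.90 and 4.44 CPM in Ptprd+/+ livers (log2 fold change -0.22 ± 0.18). Ndufaf2 and Ndufaf6 had log2 fold changes of 0.10 ± 0.11 for each.

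Other genes of the pathway were counted in 11 lists, and no gene of any list reached an adjusted p of 0.05 in edgeR or DESeq2. Over all tested genes 3.39% were higher and 3.77% lower at an unadjusted p under 0.05. Of the complex IV assembly factors, the longest list, 4 of 24 were higher and 0 lower, with a median log2 fold change of 0.12. Its smallest p belonged to Higd1a, a small membrane protein of cytochrome c oxidase and its supercomplexes. Higd1a had 25.8, 27.2 and 22.7 CPM in Ptprd+/- livers, against 19.4, 18.1 and 19.2 CPM in Ptprd+/+ livers (log2 fold change 0.42 ± 0.10 SE, unadjusted p 0.00374, adjusted p 0.635 in edgeR). Among 7 genes of ATP synthase assembly and regulation, 1 was at an unadjusted p under 0.05 and the median was 0.10. This was Usmg5, a small protein of the ATP synthase dimer, with 4.94, 5.92 and 4.99 CPM in Ptprd+/- livers against 3.21, 3.50 and 3.45 CPM in Ptprd+/+ livers (log2 fold change 0.64 ± 0.15, unadjusted p 0.00281, adjusted p 0.604). For both genes all Ptprd+/- libraries were above all Ptprd+/+ libraries, and Ptprd+/- liver 2, not liver 1, was the highest.

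Complex I assembly factors with other names had 2 of 10 genes higher and 0 lower at that p (median 0.06), led by Timmdc1 at 0.23 ± 0.09 (SE). Assembly factors of complexes II and III had 1 of 10 higher (median 0.09), which was Uqcc2 at 0.31 ± 0.12. The genes that process and stabilise mitochondrial RNA had 3 of 20 higher (median 0.03), led by Fastk at 0.26 ± 0.09. Each of these 3 lists had 0 genes lower. The 19 genes that copy and transcribe mitochondrial DNA had none in either direction and a median of 0.0028, and their smallest p was that of Polrmt, the mitochondrial RNA polymerase, at 0.19 ± 0.10. Nuclear regulators of respiratory genes had none of 12 and a median of -0.11, led by Gabpa at -0.35 ± 0.16.

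Electron carriers (9 genes, median 0.04, led by Etfdh at 0.20 ± 0.10 SE), coenzyme Q synthesis (13 genes, median 0.09, led by Coq8a at -0.53 ± 0.32) and carriers of nucleotides and phosphate (7 genes, median -0.01, led by Vdac1 at -0.20 ± 0.12) had 0 genes at that p. In the citric acid cycle, which shares complex II, 1 of 13 genes was lower and 0 higher. Idh3a, a subunit of NAD-dependent isocitrate dehydrogenase, had 32.7, 31.8 and 34.0 CPM in Ptprd+/- livers, against 39.3, 40.6 and 40.5 CPM in Ptprd+/+ livers (log2 fold change -0.29 ± 0.09, unadjusted p 0.00969, adjusted p 0.671 in edgeR). The genotypes did not overlap for this gene, and the spread within each was small.

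Within the nuclear subunits the fold change went with the length of the protein. The 20 tested subunits with at most 300 coding bases had a median log2 fold change of 0.18, the 27 longer ones with up to 500 bases 0.15, the next 18 with up to 1000 bases 0.07 and the 11 over 1000 bases 0.01. Small accessory subunits such as Ndufa3, Ndufa1 and Atp5k thus lay at the high end, and large core subunits such as Sdha and Atp5b near 0. Across the 76 subunits, which share the same 6 libraries, Spearman's correlation of fold change with coding length was -0.49 and Pearson's r was -0.41. Among 12973 other tested genes Spearman's correlation was -0.12, with medians of 0.05, 0.05, 0.02 and -0.02 in the same 4 length classes. Without Ptprd+/- liver 1 the other genes showed one of -0.01 and the subunits one of -0.41, with medians of 0.09, 0.06, 0.0021 and -0.03. With the length of the whole transcript the other genes lay closer to the subunits. Spearman's correlation with transcript length was -0.44 for the subunits and -0.24 for the other genes. With Ptprd+/- liver 1 as the only Ptprd+/- library it was -0.39 for both. Without Ptprd+/- liver 1 it was -0.39 for the subunits and -0.05 for the other genes. The sources used here give no RNA quality values, and the part of fragment or transcript length in this order was not tested.

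**Figure D4:**
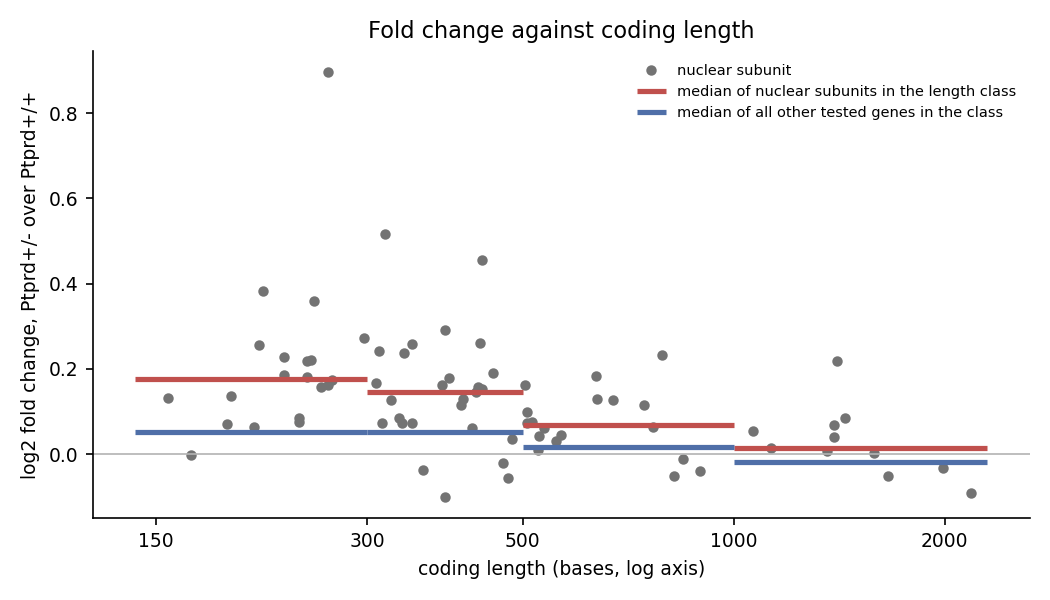
Log2 fold change (Ptprd+/- over Ptprd+/+) of the 76 nuclear subunits against coding length in bases (log axis), 1 point per gene, with the medians of the subunits and of all other tested genes in 4 length classes. The subunit medians are 0.18, 0.15, 0.07 and 0.01 with increasing length, and those of the other genes 0.05, 0.05, 0.02 and -0.02.

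Levels per coding length divide the reads of a whole transcript by its coding bases alone, so untranslated sequence raises them. Uqcrq has 246 coding bases in a transcript of 1521 bases, Uqcr10 192 in 434 and mt-Cytb 1144 in 1144. The orders below hold for this divisor, were not checked by transcript length, and are further limited where sequence is shared with other genes. Over the 6 libraries the median was 5427 CPM per coding kilobase for the 7 tested mitochondrial subunits, from 47.2 for mt-Nd6 to 9981 for mt-Cytb. The median of the nuclear subunits was 142 CPM per kilobase for complex I, 295 for complex II, 394 for complex III, 543 for complex IV and 443 for complex V. Among nuclear subunits with under 10% shared sequence the medians were 138 for complex I, 295 for complex II, 564 for complexes III and IV each, and 575 for complex V. The complex I assembly factors stood at 21.8 CPM per kilobase, well below the subunits they help to join. The most abundant nuclear subunits per coding kilobase were Ndufa3 (337) in complex I, Sdhd (489) in complex II, Uqcrq (1032) in complex III, Ndufa4 (911) in complex IV and Atp5b (931) in complex V. The lowest were Ndufb4 (15.2), Sdhb (232), Uqcrb (148), Cox8b (0.082) and Atp5g2 (1.12), of which Ndufb4, Uqcrb and Atp5g2 share 37.0%, 43.4% and 87.4% of their stretches. With such genes left out, the lowest value was 54.9 in complex I, 179.9 in complex III and 257 in complex V.

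Subunits of one complex are needed in fixed proportions, yet some essential subunits had far fewer counts than their partners. These tended to share sequence with other annotated genes. Stretches on either strand were counted, so the share includes places where neighbouring genes overlap, which are not copies. Ndufb6 shared 34.1%, mainly with Smim27, and 39.0% of its exon bases were overlapped on the other strand. For Uqcrc2, mainly with Pdzd9, these values were 24.8% and 19.7%. Overlap and copies were not separated in the classes below. Leaving out the tissue-restricted forms, the 29 nuclear subunits with no shared 50-base stretch had a median of 252.5 CPM per coding kilobase, and the 16 with up to 10% shared had 250.4. The 17 with 10 to 30% shared had a median of 161, the 8 with 30 to 50% had 127, and the 4 with over 50% had 12.2. Atp5l (84.8% shared) stood at 10.2 CPM per kilobase, Cox7c (53.0%) at 14.3 and Ndufb4 (37.0%) at 15.2. Atp5g1, with 11.6% shared but spread over 366 partner genes, stood at 10.1. Counts of such genes cannot be read as their RNA level relative to other subunits, and the part of multiply mapping reads was not tested. For the 47 tested nuclear subunits with under 10% shared, the median log2 fold change was 0.10.

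**Figure D5:**
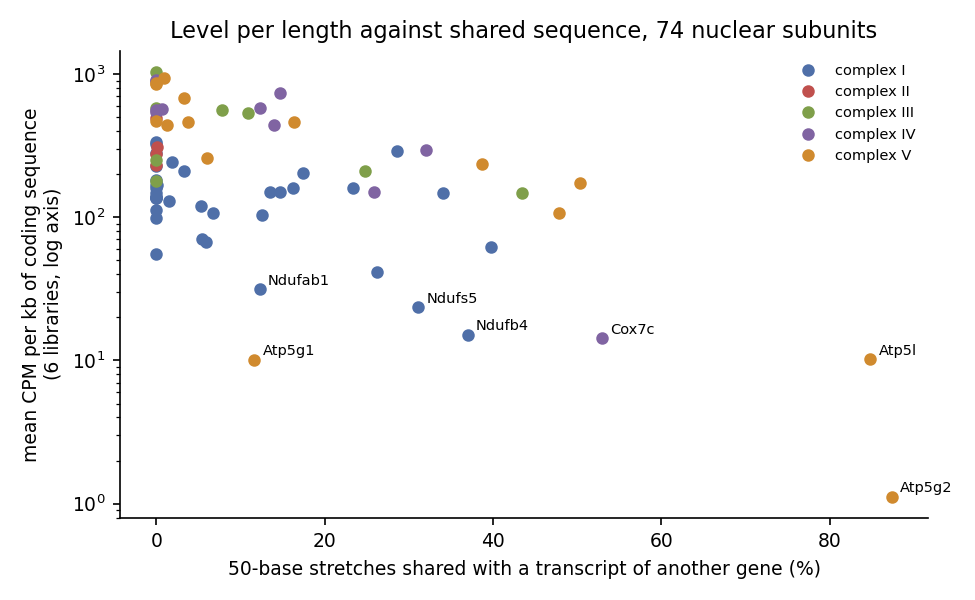
Mean level over the 6 libraries (CPM per coding kilobase, log axis) of 74 nuclear subunits against the percent of their 50-base stretches that occur in another annotated gene, 1 point per gene, coloured by complex. The median level is lower above 10% shared, with Atp5l (10.2) and Atp5g2 (1.12) at the far right. Stretches where neighbouring genes overlap count as shared.

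Promoters of respiratory genes are known to bind NRF1, GABPA (also called NRF2) and YY1. The window of 250 bases before to 50 after the start was available for 66 of the 79 nuclear subunits (RefSeq, GRCm38.p6). Core motifs were searched on both strands as GCGCA followed by its reverse complement TGCGC for NRF1, CCGGAAG for GABPA and AAGATGGCG for YY1, and they do not overlap each other as printed here. Atp5k is shown because it had the smallest p in ATP synthase and carries an NRF1 and a GABPA match, and Ndufs6, chosen after its values were seen, because it carries a YY1 match. Capitals mark the matches, the GABPA one being on the opposite strand (Atp5k chr5:108434350-108434649, minus strand; Ndufs6 chr13:73328433-73328732, minus strand).
Atp5k: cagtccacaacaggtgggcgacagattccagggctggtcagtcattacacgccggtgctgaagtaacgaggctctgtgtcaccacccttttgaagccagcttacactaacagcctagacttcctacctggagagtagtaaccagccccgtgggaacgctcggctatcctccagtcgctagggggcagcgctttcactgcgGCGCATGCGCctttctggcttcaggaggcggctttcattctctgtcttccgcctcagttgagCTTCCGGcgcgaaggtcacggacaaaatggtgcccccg
Ndufs6: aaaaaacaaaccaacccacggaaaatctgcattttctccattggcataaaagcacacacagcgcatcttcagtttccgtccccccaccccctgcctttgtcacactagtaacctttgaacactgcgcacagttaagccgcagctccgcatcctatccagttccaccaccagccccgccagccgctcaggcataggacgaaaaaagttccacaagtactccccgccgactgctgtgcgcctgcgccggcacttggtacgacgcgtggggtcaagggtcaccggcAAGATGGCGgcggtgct
The NRF1 letters occurred in 7.58% of the subunit promoters, against 0.977% of all 27018 promoters. The GABPA letters occurred in 22.7%, against 9.12%, and the YY1 letters in 9.09%, against 1.495%. Median fold changes lay close together, with a log2 value of 0.13 for the 15 tested subunits with the GABPA letters and 0.12 for the 50 without. The medians were 0.15 and 0.13 with and without the NRF1 letters, and 0.14 and 0.13 with and without the YY1 letters. The window of Ndufs5 holds none of the 3.

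Other properties of the libraries also differed, and few of them followed the order of the nuclear subunits. The summed level of 8 hepatocyte markers was 178077, 147682 and 145045 CPM in Ptprd+/- livers, against 133405, 122422 and 146022 CPM in Ptprd+/+ livers. Most of this sum was Alb (albumin), with 144174, 118412 and 121107 CPM in Ptprd+/- livers against 109462, 100040 and 117403 CPM in Ptprd+/+ livers. Ptprd+/- liver 1 was the highest and Ptprd+/+ liver 2 the lowest in Alb, as in the level of the nuclear subunits. The libraries between them were ordered otherwise. Ptprd+/- liver 3 was above every Ptprd+/+ liver in Alb, while its subunit level was -0.08. Of the 8 markers 5 had a positive log2 fold change (median 0.16). Ttr had the smallest p of them, with a log2 fold change of 0.34 ± 0.14 (SE) and no overlap between genotypes. Ass1, of the urea cycle, had -0.48 with Ptprd+/+ liver 1 the highest. Of 13 clock genes, 2 were higher and 2 lower at an unadjusted p under 0.05, against 3.39% and 3.77% of all tested genes. Clock had the smallest p of them, with 31.3, 20.2 and 20.3 CPM in Ptprd+/- livers against 37.4, 33.4 and 42.5 CPM in Ptprd+/+ livers. Its log2 fold change was -0.66 ± 0.19 (SE), unadjusted p 0.00727 and adjusted p 0.649 in edgeR, without overlap between genotypes. Dbp, a clock output gene, had 13.5, 129 and 122 CPM in Ptprd+/- livers, against 18.9, 29.6 and 14.4 CPM in Ptprd+/+ livers, which set Ptprd+/- livers 2 and 3 apart. Leaving out both leaves Ptprd+/- liver 1 as the only Ptprd+/- library, so the values without them (0.28 for the nuclear and -0.28 for the mitochondrial subunits) describe that library and are no replicate check. Summed markers of other cell types lay between 416 and 782 CPM in Ptprd+/- livers and 548 and 856 CPM in Ptprd+/+ livers for Kupffer cells, and between 372 and 499 CPM against 398 and 459 CPM for endothelial cells. They lay between 309 and 332 CPM in Ptprd+/- livers against 324 and 378 CPM in Ptprd+/+ livers for stellate cells, and between 110.3 and 165 CPM against 99.5 and 269 CPM for erythroid cells. Kupffer cell markers had 2 of 11 positive (median -0.12), and Marco, a scavenger receptor, had 37.1, 10.9 and 28.1 CPM in Ptprd+/- livers against 93.5, 69.9 and 53.8 CPM in Ptprd+/+ livers (log2 fold change -1.52 ± 0.40 SE, unadjusted p 0.00517, adjusted p 0.648 in edgeR). Lymphocyte markers summed to between 10.6 and 17.0 CPM in Ptprd+/- livers against 14.9 and 23.7 CPM in Ptprd+/+ livers, with 2 of 7 positive (median -0.26). Striated muscle markers summed to 0.109 CPM or less in every library. The part of cell-type makeup and of the clock in the members' values was not tested.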

How the data were processed

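Polyadenylated liver RNA of Ptprd+/- and Ptprd+/+ mice was sequenced in 3 strand-specific libraries per genotype, made from 145 ng of RNA, per the labels' protocols. The authors deposited a table of raw read counts per Ensembl gene. The submitters' processing notes name mm10 as the build, and the tools STAR 2.5.3a, HTSeq 0.6.1p1, cutadapt 1.10, bcl2fastq 2.17.1.14 and DESeq2 1.16.1. The sources used here do not give the gene annotation, how strand was set or how multiply mapping reads were treated, so counts of genes with near-identical copies are uncertain. The 12 normalized columns and the authors' table of comparisons were not used.

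Counts were fitted here over the whole table with edgeR 4.0.16 (R 4.3.3): filterByExpr, which kept 14606 genes with 99.95% of counts, TMM scaling, a quasi-likelihood test of genotype and Benjamini-Hochberg adjustment over all tested genes. The biological coefficient of variation was 18.4%. CPM values use TMM-scaled library sizes, and a level per length divides CPM by the coding length in GENCODE M21. DESeq2 1.42.0 and limma-voom (limma 3.58.1) were alternatives, with other scalings, no filter, a filter of 1 CPM in 3 libraries, a replicate block and leaving out each library. Leaving out Ptprd+/- livers 2 and 3 together, and keeping members under 10% shared sequence, were added after seeing the data. The fit was also run on simulated counts, and the outcome, with its power for changes as small as these, is not given here. All pairs of libraries within a genotype differed beyond counting error.

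Members and gene lists were chosen with earlier results of these data known. Genes named are the mitochondrial members, Sdh genes, the 4 smallest p in each nuclear class, tissue-restricted paralogs, the most and least abundant subunit of each complex, and the smallest p in each other list.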

Additional observations from a re-analysis of the deposited data

How the results depend on the processing

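No member was called at an adjusted p of 0.05 under any alternative run. Over all tested genes, edgeR called 0 (495 higher and 550 lower at an unadjusted p under 0.05), DESeq2 64, edgeR without a filter 73, and 0 to 1 with a library left out. The median log2 fold change of the nuclear subunits ranged from 0.02 (without Ptprd+/- liver 1) to 0.18 (without Ptprd+/- liver 3) with a library left out, and was 0.28 without both Ptprd+/- livers 2 and 3, where Ptprd+/- liver 1 is the only one left and is assumed to vary like the Ptprd+/+ libraries. That of the mitochondrial subunits ranged from -0.40 (without Ptprd+/- liver 3) to 0.022 (without Ptprd+/- liver 2). The cause was not tested. The number of nuclear members higher at an unadjusted p under 0.05 ranged from 1 to 13 with a library left out, against 6 with all libraries. That of mitochondrial subunits lower was 0 with all libraries and 2 in DESeq2, without a filter and without Ptprd+/- liver 3. The shares of all tested genes at that p in these alternative runs are not given here. A change in these counts therefore cannot be read as particular to the members. Deviations of same-numbered libraries of the genotypes were weakly correlated (-0.07, 0.12 and 0.15 for numbers 1, 2 and 3), against -0.30 to 0.18 for unlike numbers. With 3 libraries per genotype these values cannot tell whether the numbers mark pairs or a shared batch, and the labels do not say. With the replicate block no member was called, and the medians were 0.11 for nuclear and -0.23 for mitochondrial subunits.

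Single genes near 0 changed sign. With a library left out, log2 fold changes ranged from -0.065 to 0.059 for Atp5b, -0.012 to 0.16 for Cox7a1, -0.14 to 0.19 for Ndufa4l2, -0.058 to 0.0040 for Sdha, -0.11 to 0.091 for Sdhb, -0.017 to 0.13 for Uqcrb, -0.0027 to 0.14 for Uqcrc1, -0.11 to 0.022 for mt-Cytb, -0.29 to 0.023 for mt-Nd2, -0.14 to 0.076 for mt-Nd4 and -0.49 to 0.037 for mt-Nd6. Without both Ptprd+/- livers 2 and 3 the values were 0.0089 for Ndufaf5, 0.029 for Ndufb4, 0.16 for Sdhb and 0.0080 for mt-Nd4, and limma-voom gave -0.0084 for Ndufa4l2. With 3 libraries per genotype, an exact permutation test of a single value cannot go below p = 0.1. Depth limits Cox4i2, Cox6a2 and Cox8b, which had 27 reads or fewer in all.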
